A study of Danio rerio with 6 samples.

Results

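The transcripts of the mitochondrial genome comprised 37 of the 31701 genes in the table of apical ventricle tissue from regenerating zebrafish hearts. Genes were included if their symbol starts with mt-, which holds for the 13 protein-coding genes. The 2 ribosomal RNAs and 22 transfer RNAs carry the name of the clone that holds the mitochondrial sequence, followed by a number, and were included by that name, with their identity taken from the KEGG entry in the table and from lengths equal to those of the RefSeq mitochondrial genes (GRCz12tu). Of the 37 genes, 36 were matched to RefSeq in this way, and 1 transfer RNA row of 70 bases was not. The table gives an exonic length for each gene but no position.

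The study asked how myocardial tbx20, a T-box transcription factor gene, affects heart regeneration after amputation of the ventricular apex. Adult fish of the AB strain were compared at 7 days post amputation (dpa). tbx20-overexpressing fish carried the cmlc2:TetON-3G driver, active in cardiomyocytes, together with the TRE3G:tbx20 responder, and control fish carried the responder alone. Doxycycline was given every day to fish of both groups, starting 1 day before injury, and each group had 3 libraries made from pooled apices of 6, 8 and 8 hearts (replicates 1, 2 and 3).

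Vertebrate mitochondrial DNA is a small circle that is transcribed from both strands as long polycistronic precursors, which are cut at the transfer RNAs into messenger and ribosomal RNAs. Its protein-coding genes specify core subunits of respiratory complexes I, III and IV and of the ATP synthase, whereas all other subunits, and all of complex II, are encoded in the nucleus. Cardiomyocytes rely on oxidative phosphorylation and are rich in mitochondria, so that mitochondrial RNA takes a large share of the RNA in heart muscle.

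Total counts were 13725103, 14002211 and 12993988 in the tbx20-overexpressing libraries and 13218054, 17754483 and 17324748 in the control libraries. The targeted gene, tbx20, had 133, 19.01 and 37.1 CPM (counts scaled to a common library size) in the tbx20-overexpressing libraries, against 41.3, 8.57 and 20.3 CPM in the control libraries. It was higher in the tbx20-overexpressing library of every same-numbered pair, but the groups overlapped, and the difference passed neither call rule in the unpaired edgeR test (log2 fold change 1.43, SE 0.75, adjusted p = 0.649). With the replicate number as a block it was called higher (log2 fold change 1.24, adjusted p = 0.048, range over the alternatives 0.024 to 0.949). Of 12 cardiomyocyte markers, 11 had a negative log2 fold change and 2, actc1a and cmlc1, were called lower. Their summed level was 53735, 40511 and 27817 CPM in tbx20-overexpressing libraries and 58174, 79128 and 51966 CPM in control libraries, with no marker at 0. Here nppa (log2 fold change -0.05), nppb (0.58), tnnt2a (-0.57) and desma (-0.65) were not called. The study reports cmlc1, tnnt2a and desma as lowered in tbx20-overexpressing hearts, and by qPCR it reports nppa and nppb as raised. The sum of the markers is therefore not a measure of cardiomyocyte content alone. Among markers of other cells, 3 of 8 epicardial and fibroblast genes, 1 of 8 macrophage genes and 1 of 4 smooth muscle genes were called higher. Of the others, 3 of 8 endothelial genes were called lower, and 0 of 9 erythrocyte genes were called (edgeR, unadjusted p under 0.05 with the fold rule below). By this rule 3.27% of all genes tested were called higher and 5.56% lower. The smooth muscle gene called was acta2. The study reports its product as induced in cardiomyocytes of tbx20-overexpressing hearts, so the call does not mark smooth muscle alone. With the replicate block 6 cardiomyocyte markers were called lower and 3 macrophage markers higher, where 8.06% of all genes were called lower and 6.05% higher. With total-count scaling 6 epicardial and fibroblast and 4 macrophage markers were called higher and 0 endothelial markers lower, but this scaling called 11.7% of all genes higher and 1.64% lower. Under it 8 of 12 cardiomyocyte markers were negative, with a median log2 fold change of -0.20, and 2 were called lower. In whole apical tissue, fewer cardiomyocytes and less mitochondrial RNA per cardiomyocyte cannot be told apart.

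Mitochondrial transcripts took a smaller share of the counts in tbx20-overexpressing hearts. All 37 genes together held 15.2, 15.3 and 11.4% of the counts in the tbx20-overexpressing libraries, against 19.5, 21.1 and 16.6% in the control libraries. The groups did not overlap, and the tbx20-overexpressing library differed from the control library by -4.28, -5.86 and -5.20 percentage points in the pairs of replicates 1, 2 and 3. The means were 13.9 ± 2.22% in tbx20-overexpressing and 19.1 ± 2.30% in control libraries (SD, n = 3 each), a difference of -5.11 percentage points. As a share of summed FPKM (counts scaled by exonic length and library total), which weighs each gene per length, the values were 25.2 ± 3.35% in tbx20-overexpressing and 32.0 ± 3.17% in control libraries (SD, n = 3 each).

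Nearly all of these counts came from messenger RNA. The 13 protein-coding genes held 14.9, 15.0 and 11.1% of the counts in tbx20-overexpressing libraries and 19.1, 20.9 and 16.3% in control libraries, without overlap. The 2 ribosomal RNAs held 0.297, 0.265 and 0.312% of the counts in tbx20-overexpressing libraries and 0.391, 0.232 and 0.332% in control libraries, so these groups overlapped and the tbx20-overexpressing library was lower in 2 of 3 pairs. Within the mitochondrial counts, ribosomal RNA made up 1.96, 1.73 and 2.74% in tbx20-overexpressing libraries, against 2.01, 1.099 and 2.001% in control libraries, again with overlap. The libraries were made from poly(A)-selected RNA, which sets these shares apart from the amounts of ribosomal RNA in the tissue.

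**Figure D1:**
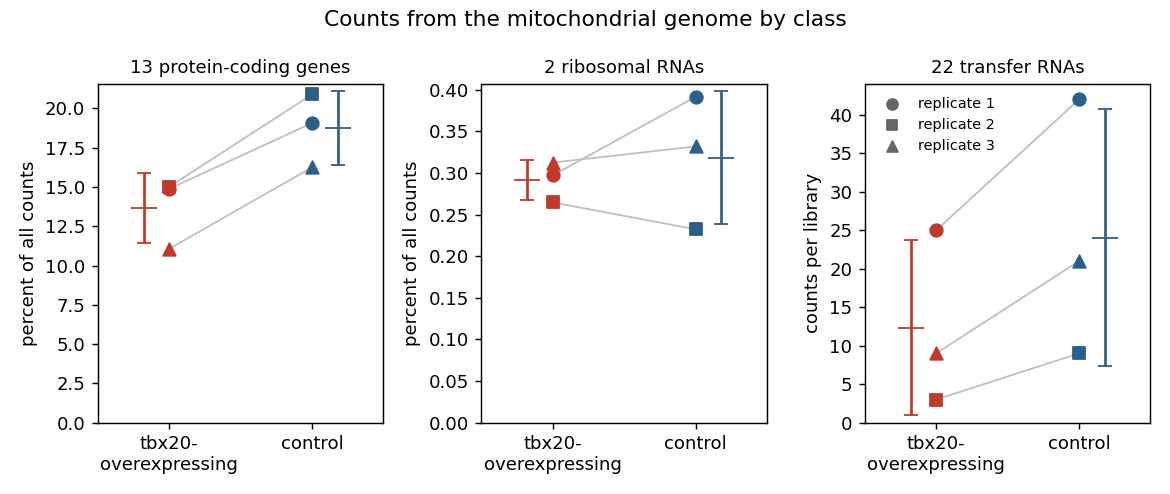
Percentage of all counts from the 13 protein-coding genes (left) and the 2 ribosomal RNAs (middle), and counts of the 22 transfer RNAs (right), in each tbx20-overexpressing (red) and control (blue) library, with the mean and SD of 3 libraries beside the points and a grey line joining same-numbered replicates. The protein-coding share lay between 11.1 and 15.0% in tbx20-overexpressing libraries, below every control library, whereas the ribosomal RNA shares overlapped.

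Transfer RNAs were nearly absent from the counts. Of the 22 genes, 19 had 0 counts in all 6 libraries. A count of 0 allows up to 3 counts, or 0.169 to 0.231 CPM depending on the library (counting error only). These limits are scaled by total counts alone, without TMM factors. The cysteine transfer RNA (trnC) had 16, 2 and 2 counts in tbx20-overexpressing libraries and 28, 1 and 8 counts in control libraries. The asparagine transfer RNA (trnN) had 5, 0 and 2 counts in tbx20-overexpressing libraries and 9, 0 and 5 counts in control libraries. The phenylalanine transfer RNA (trnF) had 4, 1 and 5 counts in tbx20-overexpressing libraries and 5, 8 and 8 counts in control libraries. In counts the groups overlapped for trnC and trnN, and for trnF they met at 5. On TMM-scaled CPM trnF did not overlap, at 0.285, 0.066 and 0.295 in tbx20-overexpressing and 0.411, 0.602 and 0.458 in control libraries. Scaled by total counts alone, its groups overlapped. None of the 3 passed the filter on low counts, and no difference was detectable at these counts.

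The protein-coding genes spanned a wide range of levels, and their order was close to the same in both groups. mt-co1 and mt-co2, which encode catalytic subunits of complex IV, had the highest levels per length, with 29965 ± 3699 FPKM for mt-co1 in tbx20-overexpressing and 38938 ± 3182 FPKM in control libraries (SD, n = 3 each). mt-co2 had 28206 ± 3963 FPKM in tbx20-overexpressing and 38835 ± 3171 FPKM in control libraries (SD, n = 3 each), and mt-co1 exceeded it in 5 of 6 libraries. mt-co1 was also the gene with the most counts of the whole table in all 6 libraries. After them came mt-co3, the third mitochondrial complex IV gene, which was below mt-co2 and above mt-atp6 in 6 of 6 libraries.

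mt-atp6, a subunit of the proton channel of ATP synthase, and mt-cyb, the cytochrome b of complex III, were next at 14637 ± 3106 and 14556 ± 2879 FPKM in tbx20-overexpressing libraries, and mt-atp6 was the higher of these in 4 of 6 libraries. The 7 complex I genes followed. mt-nd4 had 5165 ± 1206 FPKM in tbx20-overexpressing and 8016 ± 1453 FPKM in control libraries, beside 5669 ± 1590 and 8013 ± 1827 FPKM for mt-nd1. mt-nd4 was the higher in only 2 of 6 libraries, replicates 1 and 3 of the control group, and mt-nd1 was the higher in every tbx20-overexpressing library. This difference in order between groups was not tested. mt-nd2, mt-nd5, mt-nd6, mt-nd3 and mt-nd4l then stood in descending order of FPKM in both groups, with mt-nd5 above mt-nd6 in 5 of 6 libraries and the other neighbours in this order in 6 of 6.

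At the low end were mt-nd4l (297 bases), the 2 ribosomal RNAs mt-rnr2 and mt-rnr1, and mt-atp8, whose 165 bases make it the shortest of the protein-coding genes. mt-rnr2, the RNA of the large ribosomal subunit, had 1180 ± 110 FPKM in tbx20-overexpressing and 1278 ± 350 FPKM in control libraries (SD, n = 3 each). mt-atp8 had 748 ± 553 FPKM in tbx20-overexpressing and 1233 ± 448 FPKM in control libraries (SD, n = 3 each), so that the spread between libraries was wider than the distance to either ribosomal RNA. The 3 protein-coding genes shorter than all others, mt-atp8, mt-nd4l and mt-nd3, were also the 3 lowest per length, and the part of length in their level was not tested.

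**Figure D2:**
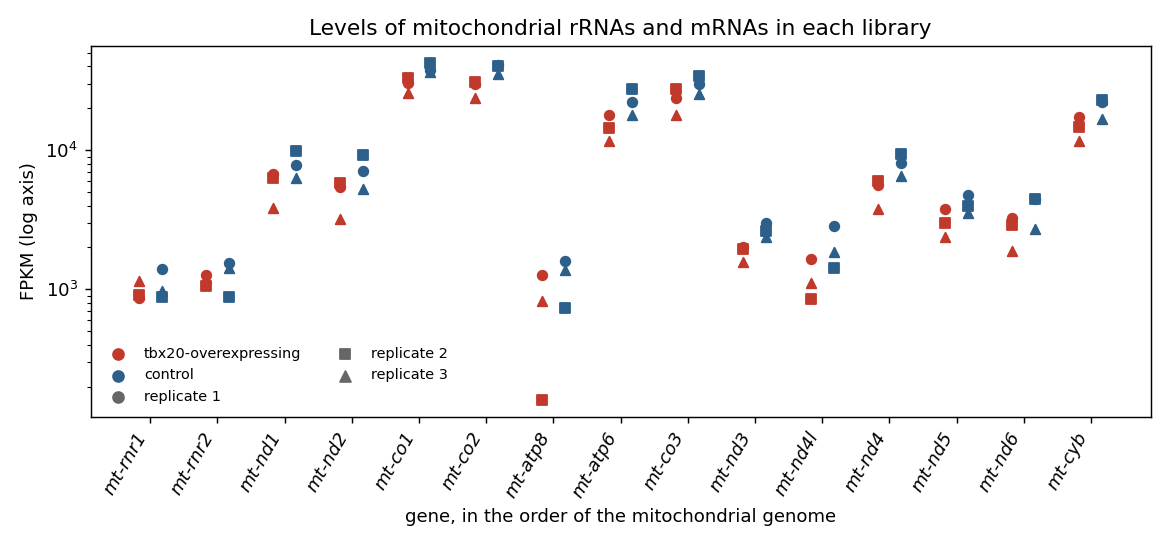
Level per length of the 2 ribosomal RNAs and 13 protein-coding genes in each library, as FPKM on a log axis, in the order of the mitochondrial genome, with tbx20-overexpressing libraries in red left of control libraries in blue and a symbol for each replicate number. mt-co1, mt-co2 and mt-co3 were the highest, and mt-atp8 in replicate 2 of the tbx20-overexpressing group, at 161 FPKM, was the lowest value.

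Between the groups, all 13 messenger RNAs were lower in tbx20-overexpressing hearts and 6 of them passed an unadjusted rule. The study's text states an unadjusted rule with its results and an adjusted one in its methods, and both were applied here. By the first, genes were called at an unadjusted p under 0.05 together with an absolute log2 fold change above 0.5, in edgeR's quasi-likelihood test on counts scaled with TMM factors. In this way 6 of the 15 mitochondrial genes tested were called lower, namely mt-nd3, mt-nd4l, mt-nd4, mt-atp6, mt-co2 and mt-cyb, against 5.56% of all 15686 genes tested. None was called higher, against 3.27% of all genes. The log2 fold changes of the 13 protein-coding genes lay between -1.07 and -0.72 with a median of -0.88, where the median of all genes was 0.04.

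No mitochondrial gene reached a Benjamini-Hochberg adjusted p under 0.05 in this fit (0 of 15 by edgeR, 6 at an unadjusted p under 0.05, background 0.0%). The smallest adjusted p was 0.364, for mt-nd3, and DESeq2 also gave 0 at an adjusted p under 0.05 (background 1.21% lower), although its unadjusted calls came to 13 of 15 against a background of 5.98%, namely mt-rnr1 and all protein-coding genes but mt-atp8. The count of 6 depended on single libraries. Leaving out replicates 1, 2 and 3 of the tbx20-overexpressing group in turn gave 8, 2 and 2 genes, against 6.32, 5.54 and 4.36% of all genes. Leaving out replicates 1, 2 and 3 of the control group gave 1, 2 and 11, against 4.69, 4.09 and 5.26%.

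Across all genes tested, same-numbered libraries varied together, although the study states no pairing. Over the mitochondrial genes alone, tbx20-overexpressing replicate 3 also varied with control replicate 1 (r = 0.714). A fit with the replicate number as a block called more genes. In it all 13 protein-coding genes were called lower, against a background of 8.06%, and neither ribosomal RNA was. mt-nd4l passed the adjusted threshold (log2 fold change -1.099, SE 0.17, edgeR adjusted p = 0.048, range over the alternatives 0.045 to 0.699), against 0.427% of all genes in that direction. Each of the 13 protein-coding genes was lower in the tbx20-overexpressing library of all 3 pairs, as were 18.8% of all genes tested. The median log2 difference over the protein-coding genes was -0.51 in the pair of replicates 1, -1.16 in that of replicates 2 and -0.97 in that of replicates 3.

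The size of the fold changes depended on how libraries were scaled. Scaling by total counts alone placed the median of all genes at 0.38 on the log2 scale, and the median of the 13 protein-coding genes at -0.53, so that their distance from the median of all genes was -0.91 under both scalings. Rescaling moves the fold changes of all genes by nearly the same amount, so the equal distances follow largely by arithmetic. With this scaling 5 genes (mt-nd3, mt-nd4l, mt-nd4, mt-atp6 and mt-cyb) were called lower, against 1.64% of all genes. With total-count scaling and the replicate block together, 9 were called lower against 2.64% (all protein-coding genes but mt-co1, mt-co2, mt-co3 and mt-nd5). In that fit 6 had an edgeR adjusted p under 0.05 against 0.542%, namely mt-nd2, mt-nd4l, mt-nd4, mt-atp6, mt-cyb and mt-co2. Of these, mt-co2 was not among the 9, with a log2 fold change of -0.47. Of all genes, this fit called 414 lower and 3579 higher. Every protein-coding gene was below 0 under both scalings.

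**Figure D3:**
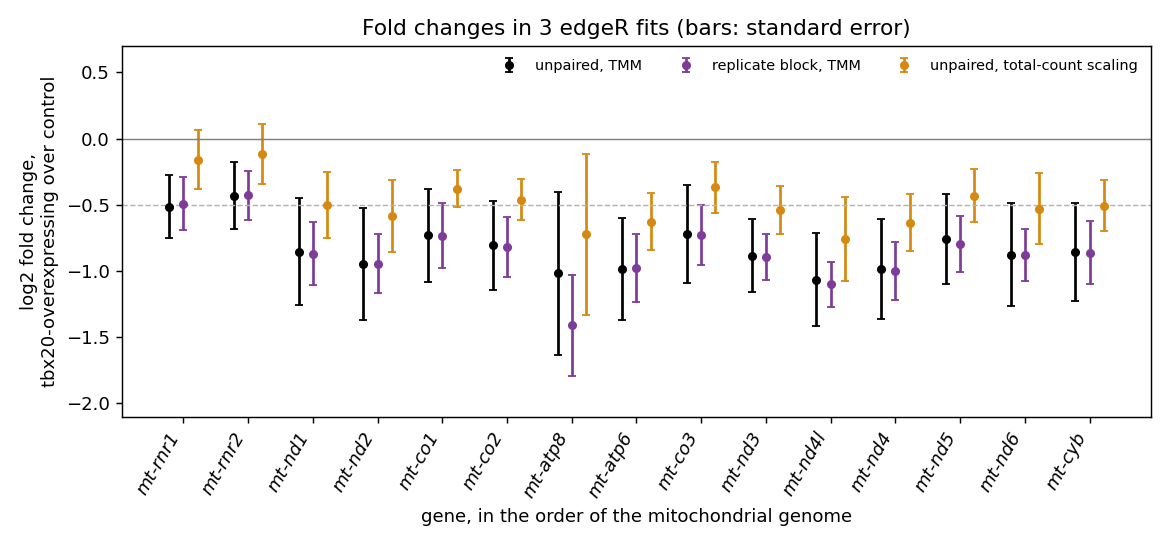
Log2 fold change of tbx20-overexpressing over control for each gene in genome order, with its standard error, in 3 edgeR fits: unpaired with TMM factors (black), with the replicate block (purple) and unpaired with total-count scaling (orange). The dashed line marks the fold rule at -0.5, below which all 13 messenger RNAs lay with TMM factors, whereas mt-rnr2 lay above it in all 3 fits.

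Complex I takes electrons from NADH, and its 7 mitochondrial genes encode the membrane arm through which protons are pumped. Of these, 3 were called lower. mt-nd3 (ENSDARG00000063914) had 688, 630 and 424 CPM (TMM-scaled, as are all CPM values of single genes here) in tbx20-overexpressing libraries, against 1147, 1237 and 831 CPM in control libraries. All tbx20-overexpressing libraries were below all control libraries. The log2 fold change was -0.88 (SE 0.27, edgeR unadjusted p = 0.0114), and it was the only mitochondrial gene that stayed called when any of the 6 libraries was left out.

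mt-nd4l (ENSDARG00000063916) had 480, 237 and 252 CPM in tbx20-overexpressing libraries and 922, 563 and 543 CPM in control libraries. These groups did not overlap, and the log2 fold change of -1.07 (SE 0.35, edgeR unadjusted p = 0.0148) had the largest size among the mitochondrial genes in this fit, while with the pairing that of mt-atp8 was larger. mt-nd4 (ENSDARG00000063917) had 7659, 7735 and 4006 CPM in tbx20-overexpressing libraries and 12243, 17322 and 8899 CPM in control libraries. Here too the groups were apart, with a log2 fold change of -0.99 (SE 0.38, edgeR unadjusted p = 0.0297), and the call held in 3 of 6 leave-one-out fits, against 4 of 6 for mt-nd4l.

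The other 4 complex I genes had similar fold changes but missed the threshold. mt-nd1 (ENSDARG00000063895) averaged 5036 ± 1908 CPM in tbx20-overexpressing and 9100 ± 3502 CPM in control libraries (SD, n = 3 each), with a fitted log2 fold change of -0.85 (SE 0.41). mt-nd2 (ENSDARG00000063899) averaged 4588 ± 1739 CPM in tbx20-overexpressing and 8838 ± 3762 CPM in control libraries (SD, n = 3 each), with a fitted log2 fold change of -0.95 (SE 0.42). mt-nd5 (ENSDARG00000063921) averaged 5034 ± 1702 CPM in tbx20-overexpressing and 8528 ± 1827 CPM in control libraries (SD, n = 3 each), with a fitted log2 fold change of -0.76 (SE 0.34). Without replicate 2 of the control group the values of mt-nd1 and mt-nd2 came to -0.52 and -0.58, and without its replicate 3 both genes were called lower. mt-nd5 was called lower in 2 of the 6 fits with 1 library left out, against 1 of 6 for mt-nd1 and mt-nd2. In all of these genes the groups overlapped, and both called and uncalled genes were lower in 3 of 3 pairs.

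mt-nd6 (ENSDARG00000063922) is the only protein-coding gene on the other strand of the vertebrate mitochondrial genome. It had 1656, 1395 and 746 CPM in tbx20-overexpressing libraries and 2511, 3072 and 1397 CPM in control libraries, with a log2 fold change of -0.88 (SE 0.39) that was not called. With 1 library left out, mt-nd6 was called lower in 2 of 6 fits. Replicate 1 of the tbx20-overexpressing group lay above replicate 3 of the control group. Since it is not stated whether the counting used strand, reads of mt-nd6 and reads from the opposite strand of the same stretch cannot be told apart.

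Complex III passes electrons to cytochrome c, and cytochrome b is its single mitochondrial subunit. mt-cyb (ENSDARG00000063924) had 19408, 15507 and 10160 CPM in tbx20-overexpressing libraries and 27656, 34749 and 19111 CPM in control libraries. Replicate 1 of the tbx20-overexpressing group was slightly above replicate 3 of the control group, so the groups overlapped. The gene was called lower with a log2 fold change of -0.85 (SE 0.37, edgeR unadjusted p = 0.0476), and in 2 of the 6 fits with 1 library left out.

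Complex IV reduces oxygen, and its catalytic core is made of the products of mt-co1, mt-co2 and mt-co3. mt-co1 (ENSDARG00000063905) had 46472, 47897 and 30846 CPM in tbx20-overexpressing libraries and 63766, 88084 and 56077 CPM in control libraries. The groups were fully apart, yet the log2 fold change of -0.73 (SE 0.35, edgeR unadjusted p = 0.0706) was not called. mt-co2 (ENSDARG00000063908) had 20185, 19920 and 12529 CPM in tbx20-overexpressing libraries and 30722, 37293 and 24109 CPM in control libraries.

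mt-co2 also did not overlap between groups and was called lower (log2 fold change -0.81, SE 0.34, edgeR unadjusted p = 0.0414), although with total-count scaling it was not, at -0.46, and it was called in 1 of the 6 fits with 1 library left out. mt-co3 (ENSDARG00000063912) had 18228, 20164 and 10850 CPM in tbx20-overexpressing libraries and 25621, 35915 and 19771 CPM in control libraries. Replicate 2 of the tbx20-overexpressing group was above replicate 3 of the control group, and the log2 fold change of -0.72 (SE 0.37) was not called.

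ATP synthase makes ATP from the proton gradient, and mt-atp6 and mt-atp8 encode subunits of its membrane sector. mt-atp6 (ENSDARG00000063911) had 11895, 9245 and 6056 CPM in tbx20-overexpressing libraries and 16625, 25100 and 12171 CPM in control libraries. The groups were apart by a small margin, and the gene was called lower (log2 fold change -0.99, SE 0.39, edgeR unadjusted p = 0.0321), also in 2 of the 6 fits with 1 library left out. mt-atp8 (ENSDARG00000063910) had 203, 24.6 and 104 CPM in tbx20-overexpressing libraries and 286, 161 and 225 CPM in control libraries. Replicate 2 of the tbx20-overexpressing group stood far below the others, the groups overlapped, and the log2 fold change of -1.02 had the largest standard error of the 13 genes (0.61) and was not called. Leaving out replicate 1 of the tbx20-overexpressing group gave -1.81, called lower, leaving out its replicate 2 gave -0.55, not called, and the replicate block gave -1.41, called lower.

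In levels, 7 of the 15 genes tested did not overlap between groups and were lower in tbx20-overexpressing libraries (mt-co1, mt-co2, mt-atp6, mt-nd3, mt-nd4l, mt-nd4 and mt-rnr1), against 8.27% of all genes. On total-count CPM it was 5 of 15 (mt-co1, mt-co2, mt-atp6, mt-nd3 and mt-nd4), against 2.98% of all genes. Replicate 3 of the tbx20-overexpressing group had the lowest CPM of all 6 libraries for 11 of 13 protein-coding genes, and replicate 2 of the control group had the highest for 11 of 13. Those same libraries had the highest (1.31) and the lowest (0.749) TMM factor, by which these CPM values are divided. On total-count CPM replicate 3 of the tbx20-overexpressing group was still the lowest for all but mt-atp8 and mt-nd4l. Control replicate 1, however, was then above control replicate 2 for mt-co2, mt-nd3, mt-nd5 and mt-nd6 as well as for mt-atp8 and mt-nd4l.

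The ribosomal RNAs had fold changes nearer to 0. mt-rnr1 (ENSDARG00000082753), the RNA of the small ribosomal subunit, had 805, 800 and 838 CPM in tbx20-overexpressing libraries and 1442, 1125 and 926 CPM in control libraries. All tbx20-overexpressing libraries were below the control libraries on this scale, with a log2 fold change of -0.52 (SE 0.24, edgeR unadjusted p = 0.0610) that was not called. DESeq2 called mt-rnr1 lower (log2 fold change -0.53, unadjusted p = 0.0274), as did edgeR without replicate 3 of the control group (-0.65), and without replicate 1 of the control group the value was -0.32. mt-rnr2 (ENSDARG00000080337) had 2101, 1654 and 1554 CPM in tbx20-overexpressing libraries and 2812, 1976 and 2365 CPM in control libraries, which overlapped, with a log2 fold change of -0.43 (SE 0.25).

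With total-count scaling these fold changes were -0.16 (SE 0.22) for mt-rnr1 and -0.11 (SE 0.22) for mt-rnr2, and mt-rnr1 was then lower in the tbx20-overexpressing library of only 1 of 3 pairs. The direction of the ribosomal RNAs within pairs thus turned with the scaling, whereas that of the messenger RNAs did not. Per 1000 counts of mitochondrial messenger RNA there were 19.96, 17.6 and 28.2 counts of ribosomal RNA in tbx20-overexpressing libraries and 20.5, 11.1 and 20.4 in control libraries. These values overlapped, and the difference between the RNA classes was not tested.

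The proportions among the messenger RNAs did not separate the groups. The share of each gene in the mitochondrial protein-coding counts overlapped between groups for all 13. mt-co1 made up 34.2 ± 2.25% of these counts in tbx20-overexpressing and 32.4 ± 2.13% in control libraries (SD, n = 3 each), with the higher value in the tbx20-overexpressing library of each pair. mt-co3, at 13.3 ± 1.06% in tbx20-overexpressing and 12.5 ± 0.325% in control libraries, was the only other gene higher in every pair, while mt-nd2, mt-nd4l and mt-nd4 were lower in every pair. By complex, complex IV held 61.8 ± 3.08% of the protein-coding counts in tbx20-overexpressing and 59.3 ± 2.40% in control libraries (SD, n = 3 each). In each of the 3 pairs complex IV had the higher share in the tbx20-overexpressing library, by 0.354, 5.39 and 1.98 percentage points. Complex I held 18.6 ± 1.70% in tbx20-overexpressing and 19.9 ± 1.27% in control libraries (SD, n = 3 each). It was lower in the tbx20-overexpressing library of each pair, with differences of -0.492, -1.68 and -1.69 percentage points, while the groups overlapped for both complexes.

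mt-atp8 and mt-nd4l were low, relative to the genes they overlap, in replicate 2 of both groups. In vertebrates the reading frame of mt-atp8 overlaps that of mt-atp6, and that of mt-nd4l overlaps mt-nd4, so each pair is found on a shared messenger RNA. The FPKM of mt-atp8 was 7.09, 1.11 and 7.10% of that of mt-atp6 in tbx20-overexpressing libraries and 7.13, 2.66 and 7.65% in control libraries. The FPKM of mt-nd4l was 29.2, 14.2 and 29.3% of that of mt-nd4 in tbx20-overexpressing libraries and 35.0, 15.1 and 28.4% in control libraries. In both ratios replicate 2 was the lowest of its group, in tbx20-overexpressing and in control libraries alike, and the groups overlapped.

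**Figure D4:**
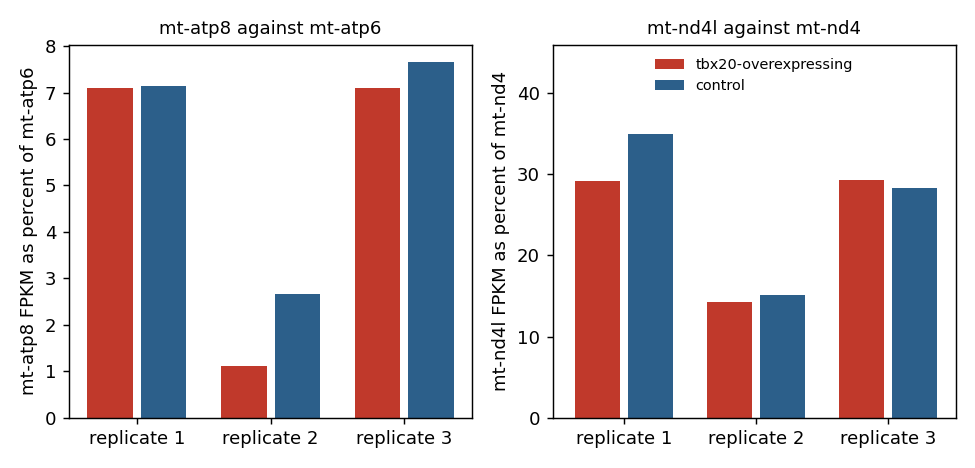
FPKM of mt-atp8 as a percentage of mt-atp6 (left) and of mt-nd4l as a percentage of mt-nd4 (right) in each library, with tbx20-overexpressing in red and control in blue for each replicate number. In both panels the 2 bars of replicate 2 were the lowest, at 1.11 and 2.66% for mt-atp8 and at 14.2 and 15.1% for mt-nd4l.

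How the authors' counting assigned reads that cover overlapping genes, or that also match copies of mitochondrial sequence in the nuclear genome, is not given in the sources used here. mt-atp8 had 2855, 372 and 1760 counts in tbx20-overexpressing libraries and 3478, 2144 and 3924 counts in control libraries, against 102793 or more counts of mt-atp6 in every library. The ratio of mt-nd6 to its opposite-strand neighbour mt-nd5 showed no such drop in replicate 2. The FPKM of mt-nd6 was 86.7, 96.0 and 79.3% of that of mt-nd5 in tbx20-overexpressing libraries and 93.1, 111 and 76.3% in control libraries, so replicate 2 was the highest of each group. Low values in replicate 2 were not confined to mt-atp8 and mt-nd4l. The share of mt-nd3 in the protein-coding counts was lowest there in each group, at 0.453% in tbx20-overexpressing and 0.443% in control libraries. That of mt-nd5 was lowest there too, at 3.66% in tbx20-overexpressing and 3.47% in control libraries. The share of mt-nd6 was the middle value of each group in replicate 2, so its high ratio to mt-nd5 there went with a low mt-nd5. Ribosomal RNA per 1000 counts of mitochondrial messenger RNA was also lowest there, at 17.6 and 11.1.

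Most nuclear genes of the same complexes were also lower in tbx20-overexpressing hearts. Of 93 nuclear subunit genes, 91 were tested, 79 were called lower and 0 higher by the same rule (background 5.56% lower), with a median log2 fold change of -0.91 beside -0.88 for the mitochondrial genes. Single nuclear genes ran from -1.82 to 0.54. The difference between the genomes was not tested. Standard errors were smaller for the nuclear genes, with a median of 0.27 beside 0.37. With total-count scaling 51 of 91 were called lower (background 1.64%) and 1, a complex IV gene, higher (background 11.7%), and with the replicate block 83 lower (background 8.06%) and 1 higher (background 6.05%). Their counts, like the mitochondrial ones, gave groups that did not overlap, at 2.20, 1.99 and 1.78% of all counts in tbx20-overexpressing and 2.79, 3.32 and 2.92% in control libraries.

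By complex, 38 of 40 tested nuclear complex I genes were called lower, as were 4 of 5 complex II, 8 of 9 complex III, 14 of 21 complex IV and 15 of 16 ATP synthase genes. The share of all genes called lower was 5.56%. With total-count scaling the calls came to 18, 4, 6, 11 and 12 in the same order, against 1.64% of all genes. ndufb7, an accessory subunit of complex I, had 83.5, 84.3 and 82.7 CPM in tbx20-overexpressing libraries, against 218, 242 and 225 CPM in control libraries. The groups were far apart with little spread (log2 fold change -1.45, SE 0.18, edgeR adjusted p = 0.108). atp5e, the epsilon subunit of ATP synthase, had 45.05, 40.5 and 26.04 CPM in tbx20-overexpressing libraries and 117, 138 and 92.2 CPM in control libraries (log2 fold change -1.64, SE 0.26, edgeR adjusted p = 0.150). Neither passed the adjusted threshold in the unpaired fit, and both did with the replicate block (edgeR adjusted p = 0.025 each, where the alternatives reached at most 0.318 for ndufb7 and 0.430 for atp5e).

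Complex II, which has no mitochondrial gene, was lower too. sdhb, its iron-sulfur subunit, had 172, 143 and 132 CPM in tbx20-overexpressing libraries and 264, 390 and 271 CPM in control libraries, without overlap, and fell by 1.05 on the log2 scale (SE 0.23). In complex III uqcrc2a, a core protein, fell by 1.14 (SE 0.30) and cyc1, cytochrome c1, by 1.099 (SE 0.30). In complex IV, cox6c fell by 1.17 (SE 0.23) and cox6a2, whose mammalian counterpart is the heart and muscle isoform, by 1.08 (SE 0.34), while its paralog cox6a1 was at -0.01 and cox4i2 at -0.24, both uncalled. The difference between these isoforms was not tested.

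**Figure D5:**
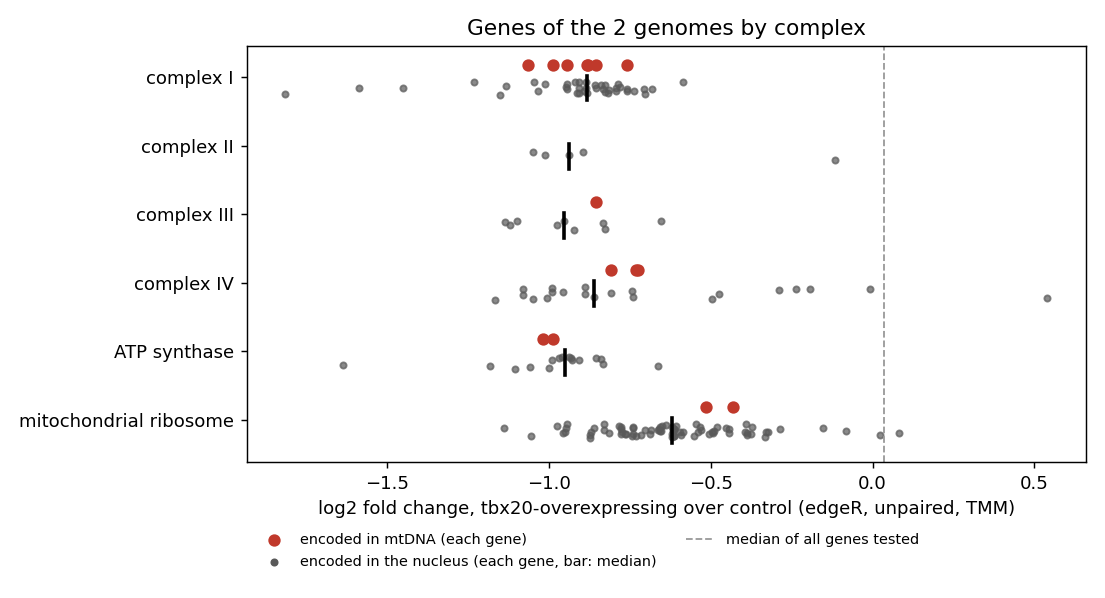
Log2 fold change of tbx20-overexpressing over control (edgeR, unpaired, TMM factors) for genes encoded in mitochondrial DNA (red) and in the nucleus (grey, median as a black bar), by complex and for the mitochondrial ribosome, with the median of all genes tested as a dashed line. In the respiratory complexes the mitochondrial genes lay between -1.07 and -0.72 and the nuclear genes, with a median of -0.91, between -1.82 and 0.54, and the ribosome, with -0.52 and -0.43 for its RNAs and a median of -0.62 for its proteins, had medians nearer to the line.

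The ratio between the genomes did not separate the groups. There were 6.75, 7.53 and 6.21 counts of mitochondrial messenger RNA per count of nuclear subunit RNA in tbx20-overexpressing libraries, against 6.85, 6.29 and 5.57 in control libraries. These values overlapped. Per count of the cardiomyocyte markers there were 2.71, 3.44 and 3.05 counts of mitochondrial messenger RNA in tbx20-overexpressing libraries and 3.56, 3.53 and 3.10 in control libraries, and these too overlapped, although the tbx20-overexpressing library was the lower of each pair. The markers themselves had a median log2 fold change of -0.53, and of -0.20 with total-count scaling. They took 5.49, 4.37 and 3.63% of the counts in tbx20-overexpressing and 5.35, 5.93 and 5.24% in control libraries, and their part in the lower mitochondrial share was not tested. Since the study reports several of these markers as changed with tbx20 overexpression, counts per marker count are not counts per cardiomyocyte.

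Nuclear genes that make or read mitochondrial RNA had median fold changes nearer to 0. Of 76 mitochondrial ribosomal protein genes, 40 were called lower and 0 higher, with a median log2 fold change of -0.62, against 5.56% of all genes called lower. With total-count scaling 6 of 76 were called lower, against 1.64% of all genes. mrps2, of the small subunit, fell by 1.14 (SE 0.22), to 23.9, 23.7 and 17.8 CPM in tbx20-overexpressing libraries, against 40.6, 58.4 and 44.99 CPM in control libraries. Of 15 mitochondrial aminoacyl-tRNA synthetase genes, which charge the transfer RNAs, 3 were called lower (fars2 among them, and fars2 alone with total-count scaling), with a median over the list of -0.23, against the same 5.56% and 1.64% of all genes.

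The transcription machinery was mostly below the threshold. Of 15 genes for transcription and maintenance of the mitochondrial genome, 2 were called lower and 0 higher, with a median log2 fold change of -0.26, against 5.56% of all genes called lower. The distance of this small count from that share was not tested. The 2 genes were tfb2m, an initiation factor of the mitochondrial RNA polymerase, at -0.75 (SE 0.26) and mterf2, of the mitochondrial termination factor family, at -0.79 (SE 0.30). The polymerase gene itself, polrmt, had 11.8, 8.61 and 9.01 CPM in tbx20-overexpressing libraries and 13.8, 10.5 and 11.3 CPM in control libraries, which overlapped (log2 fold change -0.27, SE 0.24). tfam, which packages mitochondrial DNA and activates its transcription, had 23.7, 31.8 and 21.7 CPM in tbx20-overexpressing libraries and 25.1, 41.1 and 31.3 CPM in control libraries, also with overlap (log2 fold change -0.33, SE 0.25). With total-count scaling both were near 0, at 0.05 for polrmt and 0.03 for tfam, and tfb2m and mterf2 were no longer called.

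Of 17 genes for processing, polyadenylation and decay of mitochondrial RNA, 3 were called lower and 0 higher, with a median log2 fold change of -0.37, against 5.56% of all genes called lower. With the replicate block 6 were called lower, against 8.06%. With total-count scaling 2 were called lower, against 1.64%, and 1, ptcd2, higher, against 11.7%. lrpprc, which in mammals stabilizes mitochondrial messenger RNAs, had 127, 84.3 and 71.6 CPM in tbx20-overexpressing libraries and 191, 170 and 156 CPM in control libraries. The groups did not overlap, and lrpprc was called lower in all 6 fits with 1 library left out (log2 fold change -0.87, SE 0.25, edgeR unadjusted p = 0.00734). hsd17b10, a subunit of mitochondrial RNase P, fell by 1.06 (SE 0.30), and tbrg4, of the FASTK family, fell by 0.66 (SE 0.27). mtpap, the mitochondrial poly(A) polymerase gene, was at 0.05 and was not called.

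Among 9 regulators of mitochondrial biogenesis, gabpb1 at -0.68 (SE 0.29) and esrrga at -0.53 (SE 0.21) were called lower, against 5.56% of all genes, and neither was with total-count scaling. ppargc1a, a coactivator of mitochondrial biogenesis, had 34.2, 5.23 and 8.42 CPM in tbx20-overexpressing libraries and 41.0, 9.25 and 10.2 CPM in control libraries. It was lower in 3 of 3 pairs, but replicate 1 stood far above the rest in both groups, and the log2 fold change of -0.34 had a standard error of 0.78.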

How the data were processed

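Apical ventricle tissue was sequenced from poly(A)-selected RNA in 3 tbx20-overexpressing and 3 control libraries. According to the submitters' processing notes and the study's methods, the authors trimmed reads with Trimmomatic 0.30 and aligned them with HISAT2 2.0.1 to GRCz10 (Ensembl 86). The counting tool and its handling of strand and of reads that match several places are not given in the sources used here. The authors deposited raw counts per gene, FPKM values and the exonic length of each gene (the other measure used). All 190206 FPKM values equalled counts divided by length and total count, to 2 decimals. The authors' analysis used DESeq.

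Counts were tested with edgeR 4.0.16 in R 4.3.3 (filterByExpr, TMM factors, quasi-likelihood F test, two-sided, 15686 genes), without covariates. Standard errors are the log2 fold change divided by the square root of F. Alternatives were RLE, upper-quartile and total-count scaling, TMM without the mitochondrial or the 20 highest-count genes, no filter, at least 10 counts in every library, DESeq2 1.42.0, limma 3.58.1 on log2(FPKM + 1) and log2(FPKM + 0.1), a replicate block, and leaving out each library. Shares and lists were described without a test.

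All members with counts are named. From each nuclear list, at most 4 called genes with the largest fold change were named, of which the text gives examples, and polrmt, tfam, lrpprc, ppargc1a and tbx20 always. mtpap, ptcd2, cox6a1 and cox4i2 were singled out after their values were seen. The values of 1 gene of these lists are not reported here. Nuclear subunits were taken by symbol prefix, so that complex I includes ndufa4, now assigned to complex IV, and the genes named after it (ndufa4l, ndufa4l2a and NDUFA4L2). The counts and ranges given for complex I and for all nuclear subunits include these genes. The members and lists were chosen with earlier results of these data known.

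Same-numbered libraries were treated as pairs in the block, although neither the sample titles nor the study's methods state a pairing. After subtraction of group means, they correlated across all genes tested with r of 0.453, 0.409 and 0.469, and unlike numbers with at most -0.132. Where same numbers correlate positively, this subtraction makes unlike numbers negative on average. Over the mitochondrial genes alone, same numbers gave 0.440, 0.792 and 0.856, and unlike numbers -0.892 to 0.714. No libraries of a group were duplicates (chi-square per degree of freedom 47.2 to 82.0). On simulated data with 200 of 15830 genes changed by 2 on the log2 scale, edgeR recovered 87% and DESeq2 92.5% at an adjusted p under 0.05, with 6.95% and 19.2% of calls false. The mitochondrial protein-coding genes had smaller fold changes (-1.07 to -0.72), and the simulation held no replicate effect. These rates therefore do not give the power for the mitochondrial genes. Limits for counts of 0 cover counting error only. RefSeq (GRCz12tu) served for names, lengths and gene order.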

Additional observations from a re-analysis of the deposited data

How the results depend on the processing

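All 270 values of the 15 tested mitochondrial genes under the alternatives were negative: 213 kept their side of the threshold, 33 were called in addition and 24 lost the call. The number of mitochondrial genes called lower was 6, and became 10 with no filter, 13 with DESeq2 and 13 with the replicate block. The shares of all genes called lower in these 3 fits were 4.48, 5.98 and 8.06%. When 1 library was left out the number ranged from 1 to 11, and the share of all genes from 4.09 to 6.32%. The number of mitochondrial genes called higher remained 0. Of the nuclear subunit genes, 79 were called lower, against 51 with total-count scaling. Of all genes tested, 872 were called lower and 513 higher, against 258 lower and 1838 higher with total-count scaling. The lower calls were 262 with limma on log2(FPKM + 1), 295 with log2(FPKM + 0.1) and 414 with total-count scaling and the replicate block. The median of the protein-coding genes was -0.88, and -0.53 under each of total-count scaling, limma with either pseudocount, and total-count scaling with the block. The share difference stayed between -6.35 and -3.83 percentage points when 1 library was left out. The mean of the pair differences, -5.11, equals the difference of group means by arithmetic. Apart from the calls given beside the results, the block changed no call of the mitochondrial genes. The transfer RNAs had too few counts to compare in these poly(A)-selected libraries, and the part of depth in this was not tested. The causes of these shifts were not tested.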
